A study of Arabidopsis thaliana with 6 samples.

Results

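Calmodulin-like (CML) genes were examined in dry Arabidopsis thaliana seeds of hda9-1 and of the Col wild type. They were the genes whose symbol in the platform annotation begins with CML, CAM, CPK, CDPK, CIPK or CBL and a digit, each read from its brightest probe set that is listed for 1 gene. The rule found 7 genes among the 13356 genes measured in this way, and all 7 belong to the CML family: CML23 (AT1G66400), CML30 (AT2G15680), CML37 (AT5G42380), CML38 (AT1G76650), CML41 (AT3G50770), CML42 (AT4G20780) and CML43 (AT5G44460). The gene table of assembly TAIR10.1 holds 81 symbols of this form, and calmodulins (CAM), calcium-dependent kinases (CPK and CDPK), calcineurin B-like sensors (CBL) and their kinases (CIPK) are not analysed here, because no probe set was paired with one of them in the annotation used here. The results therefore concern calmodulin-like sensors and no kinase.

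The mutant line, hda9-1, carries a T-DNA insertion (SALK_001723) in the gene of the histone deacetylase HDA9, an enzyme that takes acetyl groups off histones. It was compared with the Col wild type. The labels give no treatment beyond growth on soil with 16 h light (22 °C) and 8 h dark (16 °C) for both genotypes, and dry seeds were taken from siliques 18 to 19 days after pollination. Each genotype had 3 biological replicates with 1 Affymetrix ATH1 array each, and every replicate was a pool of siliques from several plants. A single insertion allele was measured, and because the HDA9 transcript was not analysed here, it gave no check of the labelled genotypes.

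Calcium ions act as a signal inside plant cells. A stimulus opens channels, the cytosolic calcium level rises, and proteins with EF-hand loops bind the ion and change shape. Calmodulin-like proteins are such sensors: they hold EF-hands, have no kinase domain of their own and act by binding other proteins, whereas calcium-dependent kinases combine sensor and kinase in 1 protein. Many CML genes are known for quick and transient transcript responses to touch, wounding, pathogens or low oxygen.

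Among the 7 genes, CML41 rose in hda9-1 seeds, about 2.09-fold, and it was the only one to pass over all probe sets. CML38 had the largest difference, 2.95-fold higher in hda9-1, but its replicates were far apart, and it passed only when the replicate number was taken into account. CML30 lay lower in hda9-1 on every array without passing. CML23, CML37, CML42 and CML43 gave overlapping values in the 2 genotypes. A call is an adjusted p under 0.05 in limma, a linear model fitted to all 22746 probe sets. Of these, 1.37% were called higher and 2.45% lower in hda9-1, against 1 higher and 0 lower of the 7 CML genes. An unadjusted limma p under 0.05 was found for 19.2% of all probe sets and for 3 of the 7 CML genes. CML38 and CML41 were higher and 1, CML30, was lower. In whole seeds, a difference in RNA per cell and a difference in the share of cells that express a gene cannot be told apart.

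**Figure D1:**
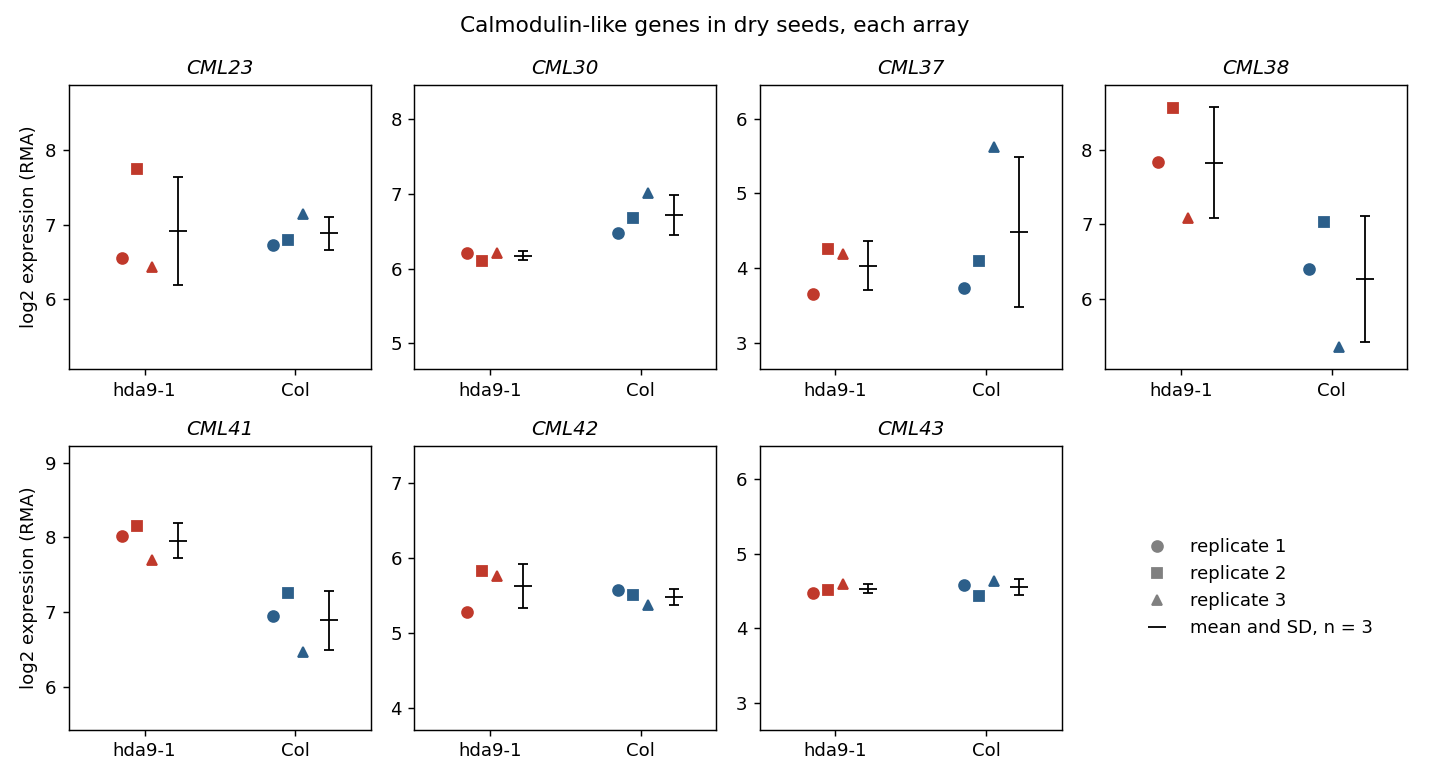
Log2 expression of the 7 calmodulin-like genes on each array (vertical axis, RMA values; every panel spans the same number of log2 units), with hda9-1 at the left and Col at the right. Symbols mark the replicate number, and bars give the mean and SD of 3 arrays. CML41 and CML38 lie higher in hda9-1 and CML30 lower with no overlap, while the other 4 genes overlap.

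CML41 encodes a sensor known from immune signalling at plasmodesmata, the channels that join neighbouring plant cells. On the log2 scale, it read 8.02, 8.15 and 7.70 in hda9-1 replicates 1, 2 and 3, against 6.95, 7.26 and 6.47 in Col replicates 1, 2 and 3. All 3 hda9-1 arrays lay above all 3 Col arrays, with 0.44 log2 units between the nearest arrays. The means were 7.96 ± 0.23 in hda9-1 and 6.89 ± 0.40 in Col (SD, n = 3 each). The log2 change, always hda9-1 minus Col, was 1.07 (SE 0.21, 95% interval 0.58 to 1.55, limma adjusted p = 0.0386). That call was kept without Col replicate 2 (adjusted p = 0.0271), but the adjusted p was 0.108, 0.128 and 0.0707 without hda9-1 replicate 1, 2 or 3. It was 0.122 without Col replicate 1 and 0.0518 without Col replicate 3, and the log2 change stayed between 0.85 and 1.25 in these 6 fits.

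CML38, a sensor known from the response to low oxygen and wounding, read 7.84, 8.56 and 7.08 in hda9-1 replicates 1, 2 and 3, against 6.40, 7.03 and 5.36 in Col replicates 1, 2 and 3. The groups did not overlap, but the lowest hda9-1 array, replicate 3, was only 0.05 log2 units above the highest Col array, replicate 2. The means were 7.83 ± 0.74 in hda9-1 and 6.27 ± 0.84 in Col (SD, n = 3 each), and the log2 change was 1.56 (SE 0.47, 95% interval 0.46 to 2.66, limma adjusted p = 0.123). Its absolute change exceeded that of 99.8% of all probe sets. With the replicate number as a block, the SE was 0.10 and the limma adjusted p was 0.00536. That the numbers pair the arrays rests on the arrays' own deviations, since the labels do not say what same-numbered samples share.

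The differences between same-numbered arrays show what the block removes. For CML38 they were 1.43, 1.53 and 1.72 log2 units for replicates 1, 2 and 3, with an SD of 0.14, which is smaller than the SD within either genotype. For CML41 they were 1.07, 0.90 and 1.23, with an SD of 0.17. With the block, the log2 change of CML41 had an SE of 0.10 and a limma adjusted p of 0.0109. Both genes placed the 6 arrays in the same order, from hda9-1 replicate 2, the highest, through hda9-1 replicates 1 and 3 and Col replicates 2 and 1 to Col replicate 3, the lowest. CML30 was the only other gene whose 3 differences had 1 sign, at −0.27, −0.57 and −0.80. CML23 had −0.17, 0.96 and −0.70, and CML37 had −0.08, 0.17 and −1.44, so their direction depended on the pair. CML42 gave −0.29, 0.33 and 0.40, and CML43 gave −0.11, 0.08 and −0.04.

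**Figure D2:**
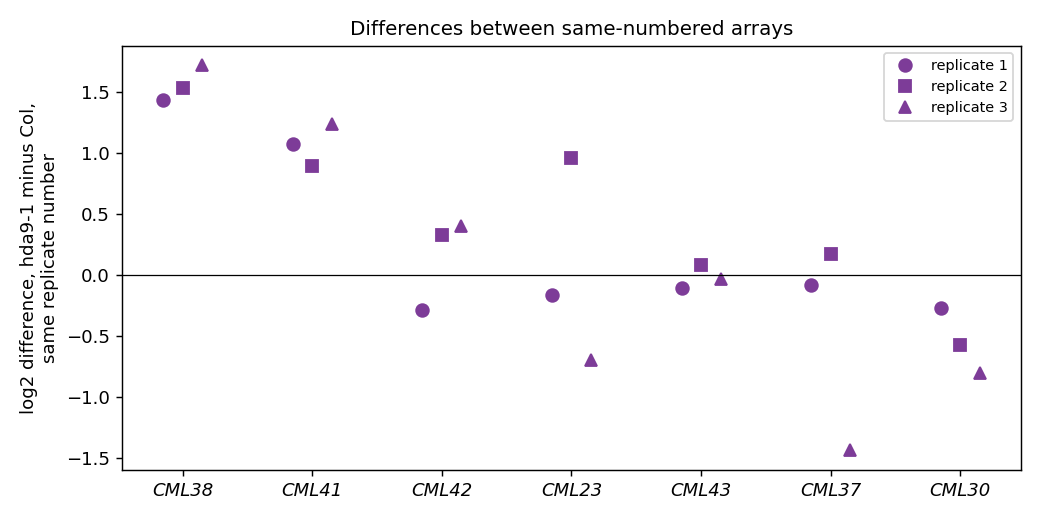
Log2 difference between the hda9-1 and the Col array of the same replicate number (vertical axis) for each calmodulin-like gene, ordered by the mean. The 3 differences of CML38 lie between 1.43 and 1.72 and those of CML41 between 0.90 and 1.23. CML23, CML37, CML42 and CML43 have differences on both sides of 0.

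CML30, whose protein is known to reach mitochondria, read 6.21, 6.10 and 6.21 in hda9-1 replicates 1, 2 and 3, against 6.48, 6.68 and 7.01 in Col replicates 1, 2 and 3. Every hda9-1 array was below every Col array, with a gap of 0.27 log2 units. The means were 6.17 ± 0.06 in hda9-1 and 6.72 ± 0.27 in Col (SD, n = 3 each). The log2 change was −0.55 (SE 0.14, 95% interval −0.87 to −0.22, limma adjusted p = 0.0779), or 1.46-fold lower in hda9-1. With the replicate block the adjusted p was 0.0580. CML30 passed in none of the 12 other fits, with a log2 change between −0.67 and −0.40. Arrays of the 2 genotypes do not overlap for 11.6% of all probe sets with hda9-1 higher and for 12.1% with hda9-1 lower, against 2 and 1 of the 7 CML genes.

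CML37, a close relative of CML38 that is known as a regulator of the wound and herbivore response, read 3.66, 4.26 and 4.19 in hda9-1 replicates 1, 2 and 3, against 3.74, 4.09 and 5.62 in Col replicates 1, 2 and 3. Col replicate 3 stood well above the other 5 arrays, which lay between 3.66 and 4.26. The log2 change was −0.45 (SE 0.45, 95% interval −1.49 to 0.59, limma adjusted p = 0.682), and 0.12 without Col replicate 3 (adjusted p = 0.838). CML23, a sensor tied to nitric oxide and flowering control, read 6.56, 7.75 and 6.44 in hda9-1 replicates 1, 2 and 3, against 6.73, 6.79 and 7.14 in Col replicates 1, 2 and 3. Here hda9-1 replicate 2 was the highest array and the other 2 hda9-1 arrays were below all of Col. The log2 change was 0.03 (SE 0.33, 95% interval −0.73 to 0.79, limma adjusted p = 0.979). Without hda9-1 replicate 2 it was −0.39 (95% interval −0.746 to −0.025, limma adjusted p = 0.311).

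CML42, known from leaf hair branching and defence against herbivores, read 5.28, 5.83 and 5.77 in hda9-1 replicates 1, 2 and 3, against 5.57, 5.51 and 5.37 in Col replicates 1, 2 and 3. The hda9-1 arrays spanned those of Col, and the log2 change was 0.15 (SE 0.15, 95% interval −0.21 to 0.50, limma adjusted p = 0.702). Without single arrays it lay between 0.04 and 0.32, the ends being the fits without hda9-1 replicate 2 (0.04, adjusted p = 0.947) and without hda9-1 replicate 1 (0.32, 95% interval 0.05 to 0.59, adjusted p = 0.227). It was 0.08 without hda9-1 replicate 3 and 0.09 without Col replicate 3. CML43, known from pathogen responses, lay between 4.48 and 4.60 in hda9-1, against 4.43 to 4.63 in Col. Its log2 change was −0.02 (SE 0.09, 95% interval −0.24 to 0.20, limma adjusted p = 0.940). The interval spans 0.85-fold to 1.14-fold on the measured scale, but differences of dim probe sets are compressed by RMA. Of all probe sets, 38.9% were dimmer than that of CML43 and 33.9% were dimmer than that of CML37.

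Most of the CML genes varied more between replicates than the typical probe set. The residual SD within genotypes was above the median of all probe sets (0.14 log2 units) for 6 of the 7 genes. It was 0.79 for CML38, 0.75 for CML37 and 0.54 for CML23, larger than for 99.7%, 99.6% and 98.6% of all probe sets, and 0.085 for CML43, larger than for 17.8%. The highest arrays were few: hda9-1 replicate 2 for CML23, CML38, CML41 and CML42, and Col replicate 3 for CML30, CML37 and CML43. The lowest arrays were more spread. They were Col replicate 3 for CML38 and CML41, and hda9-1 replicate 1 for CML37 and CML42. For CML30 it was hda9-1 replicate 2, for CML23 hda9-1 replicate 3 and for CML43 Col replicate 2. Over the 7 genes the median log2 change was 0.03, against −0.01 over all genes, and the median absolute change was 0.45, against 0.11 over all genes. There were 4 positive and 3 negative changes, so the CML genes had no shared direction, and 51.2% of all probe sets had a negative change.

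**Figure D3:**
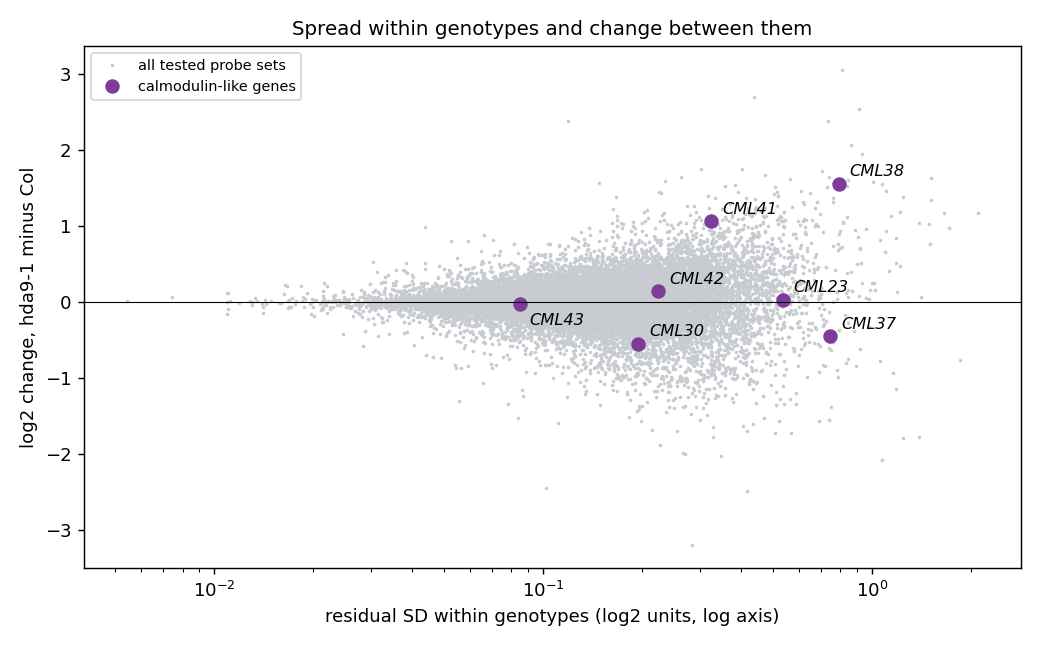
Residual SD within genotypes (horizontal, log2 units on a log axis) and log2 change, hda9-1 minus Col (vertical), for all 22746 tested probe sets (grey) and the 7 calmodulin-like genes (purple). CML38 and CML37 lie at the right edge, with an SD of 0.79 and 0.75, CML41 lies high at a smaller SD, and CML43 lies at the left near 0.

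Col replicate 3 stood apart in RNA quality. It was an extreme array for 5 of the CML genes, but so was hda9-1 replicate 2. In Col replicate 3 the actin probe set for the 3′ end exceeded that for the 5′ end by 1.58 log2 units. This excess was 1.17 to 1.28 in hda9-1 and 0.96 and 1.03 in the other 2 Col arrays. In the older actin probe sets hda9-1 replicate 2 had the largest excess, 4.19, against 4.10 in Col replicate 3. For GAPDH and ubiquitin the excess was largest in Col replicate 3, at 0.61 and 0.87, against 0.43 and 0.64 in hda9-1 replicate 2. The 25S rRNA signal was also highest in Col replicate 3. Col replicate 3 had the lowest array weight, 0.51, against 1.33 for hda9-1 replicate 2. The part of RNA quality in these results was not tested. Without Col replicate 3 the log2 change was 1.11 for CML38 (adjusted p = 0.214), 0.85 for CML41 (adjusted p = 0.0518) and −0.40 for CML30 (adjusted p = 0.107). Markers of dry seeds were bright on all 6 arrays, with PAP85, a vicilin-like storage protein, between 14.20 and 14.26 in hda9-1 and between 14.16 and 14.28 in Col. None of the 3 measured dry seed genes was called in limma (1 at an unadjusted p under 0.05), and OLEO3, an oleosin, was at −0.61 (adjusted p = 0.0805). OLEO3 was called lower with the replicate block (adjusted p = 0.0291), with array weights (0.0327) and without Col replicate 3 (0.0368). It was not called with trend and robust eBayes (0.0705), cyclic loess (0.0559), median centring (0.0797) or a filter for dim probe sets (0.0667). Nor was it called without any other single array (0.125 to 0.232). Of the markers of other tissues, PLIM2a of the pollen list passed over all probe sets (log2 change −1.18, 1 of 5 measured called, limma adjusted p = 0.0140). So did ADPG1 of silique dehiscence (−0.51, 1 of 2, 0.0399), DELTA-VPE of the seed coat (1.45, 1 of 3, 0.0496), and RCA and PRK of leaves (1.23 and 1.67, 2 of 2, 0.0313 and 0.0278). Each lost the call in some fits without a single array. The limma adjusted p there reached 0.0651 for PLIM2a, 0.135 for ADPG1, 0.148 for DELTA-VPE, 0.114 for RCA and 0.102 for PRK. The pollen list spanned −1.18 to 0.05, the seed coat list 0.10 to 1.45 and the silique wall list −0.51 to 0.39, and AGL62 of the endosperm was at 0.05. The part of other tissues in the CML results was not tested.

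An additional CML gene came in by synonym. AT1G76640 carries the synonym CML39, which the gene table also lists for CML37, and it is the direct neighbour of CML38 in gene order. It read 3.56, 3.59 and 3.54 in hda9-1 replicates 1, 2 and 3, against 3.54, 3.51 and 3.51 in Col replicates 1, 2 and 3. Its log2 change was 0.04 (SE 0.08, 95% interval −0.15 to 0.23, limma adjusted p = 0.866) at a dim signal, with 12.5% of probe sets dimmer still. AT1G76660, on the other side of CML38, was at −0.11 (SE 0.09). Of the 14 nearest protein-coding genes on either side of the 7 CML genes, 11 were measured, and none was called in limma (0 at an unadjusted p under 0.05), with log2 changes from −0.11 to 0.28 and a lowest adjusted p of 0.373. AT3G50780, next to CML41, was at 0.07 (SE 0.09).

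Other genes of calcium signalling were taken from a list of 281 symbols, of which 23 were measured: 7 channels, 1 chaperone and 15 calmodulin-binding IQ67-domain (IQD) proteins. Of the 23, 1 rose and 0 fell in limma, against 1.37% and 2.45% of all probe sets. An unadjusted limma p under 0.05 was found for 9 of the 23, against 19.2% of all probe sets. Of these, 5 were lower, while GLR2.7, GLR3.3, CRT1b and IQD28 were higher. A negative change was seen for 12 of the 23, against 51.2% of all probe sets, and the median log2 change of the 23 was −0.01. CRT1b, a calreticulin that binds calcium in the endoplasmic reticulum and helps proteins fold, read 8.55, 8.54 and 8.77 in hda9-1 replicates 1, 2 and 3, against 7.45, 7.97 and 7.51 in Col replicates 1, 2 and 3. It rose 1.97-fold with no overlap between genotypes (log2 change 0.98, SE 0.15, limma adjusted p = 0.0201). The adjusted p was 0.0575, 0.0680 and 0.0707 without hda9-1 replicate 1, 2 or 3, 0.0804 without Col replicate 1, and 0.0125 and 0.0479 without Col replicate 2 or 3.

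None of the 7 glutamate receptor-like (GLR) channel genes, whose products let calcium into the cytosol, was called in limma, and 2 had an unadjusted p under 0.05. The largest change was 0.31 for GLR2.7 (SE 0.12, adjusted p = 0.211) and the lowest −0.02 for GLR2.9 (SE 0.12). None of the 15 IQD genes was called in limma either, although 6 had an unadjusted p under 0.05, which holds for 19.2% of all probe sets. Of these 6, 5 were lower in hda9-1 (IQD16, IQD22, IQD23, IQD26 and IQD31), and they are the 5 lower genes counted above. In all, 10 of the 15 had a negative change, against 51.2% of all probe sets. The genotypes did not overlap for 4 lower and 1 higher, against 12.1% and 11.6% of all probe sets. IQD31 was at −0.64 (SE 0.17, adjusted p = 0.0828) and IQD28 at 0.38 (SE 0.15, adjusted p = 0.238). IQD23 had the lowest adjusted p of the 15 (log2 change −0.51, SE 0.12, adjusted p = 0.0650). With the replicate block, IQD31 (adjusted p = 0.0441) and IQD22 (log2 change −0.54, adjusted p = 0.0469) were lower in limma. With array weights it was IQD23 (adjusted p = 0.0357) and IQD26 (adjusted p = 0.0462) instead, and without Col replicate 2 IQD23 (adjusted p = 0.0431). IQD16, IQD23 and IQD26 are named after their values were seen. No calcium pump, exchanger, annexin or calmodulin-binding transcription factor of the list was measured.

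**Figure D4:**
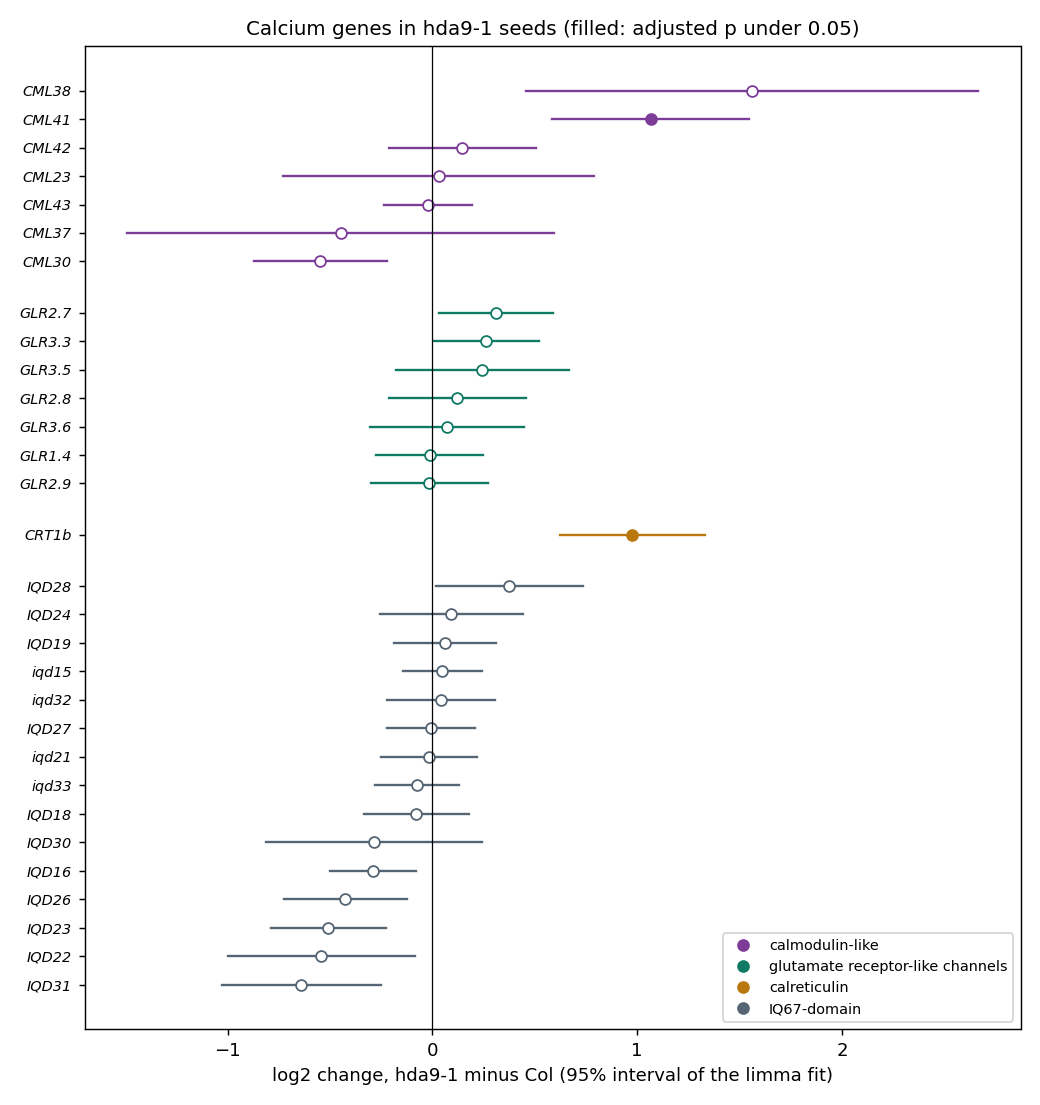
Log2 change, hda9-1 minus Col, with its 95% interval from the limma fit (horizontal) for the 7 calmodulin-like genes and 23 other calcium genes, grouped by kind. Filled points passed over all probe sets: CML41 at 1.07 and CRT1b at 0.98, while CML38 has the largest value, 1.56, and a wide interval.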

How the data were processed

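Biotin-labelled RNA of 3 hda9-1 and 3 Col samples was measured on ATH1 arrays, per the labels, which give both Trizol and a column kit for the extraction. The authors deposited log2 values made with RMA, while affy and limma are also named, per the submitters' processing notes. RMA sets the distributions of probe intensities equal on all arrays before probe sets are summarised, so a shift of most transcripts would not be seen. The array medians of the probe set values still ran from 5.41 to 5.46. The arrays' number limits the precision.

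Of 22810 probe sets, 64 controls were left out. The platform annotation pairs 13513 with 1 gene, 503 with several and 8730 with none here. All 6 arrays entered 1 fit (limma 3.58.1 in R 4.3.3, lmFit and eBayes, genotype as the only term), adjusted by Benjamini-Hochberg over 22746 probe sets and tested on simulated data. Same-numbered arrays deviated together (over all probe sets, r was 0.34 for replicate 1 and 0.21 for replicates 2 and 3, above the limit of 0.1). Arrays of unlike number gave r from −0.35 to 0.09. Deviations from a genotype's own mean are not independent of each other, so these values do not settle the pairing. Blocked values are given for CML30, CML38 and CML41 and where they change another call. The CML genes and lists were chosen with earlier results of these data known. By rule, values per array went to called genes, the largest change in each direction and separated genes; all 7 are given here. Sequences were not used here.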

Additional observations from a re-analysis of the deposited data

How the results depend on the processing

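No CML gene was called lower in any of the 14 alternatives (limma, 0 at an adjusted p under 0.05). With all arrays and no block, 1, CML30, was lower at an unadjusted limma p under 0.05. In the 12 alternatives that refit the genes, its log2 change lay between −0.67 and −0.40, and each 95% interval was below 0. The interval of CML23 was below 0 without hda9-1 replicate 2 (−0.746 to −0.025). CML41 was the 1 called CML gene with trend and robust eBayes, array weights, cyclic loess, median centring and a filter that drops the dimmest 25% of probe sets. With the replicate block 2 were called, CML38 and CML41, and leaving out single arrays gave 0 to 1. Over all probe sets, 312 were higher and 558 lower in hda9-1. With the replicate block 625 were higher and 828 lower, with 828 of the 870 calls shared, and with array weights 623 and 873. Leaving out single arrays gave 23 to 382 higher and 69 to 452 lower. Of the other calcium genes, single-array fits gave 0 to 1 higher and 0 to 1 lower, while 2 were lower with the replicate block (IQD31 and IQD22) and 2 others with array weights (IQD23 and IQD26). Of 84 values of single CML genes, 72 kept direction and call. The replicate block, trend and robust eBayes and the filter leave each log2 change as it is, so the direction could not turn there. CML41, the only gene with a call to lose, kept it in 7 of 12 fits and lost it in 5. With single arrays left out, the sign turned for 3 genes, with log2 changes from −0.39 to 0.27 for CML23, −0.82 to 0.12 for CML37 and −0.080 to 0.019 for CML43. CML23 was at −0.39 without hda9-1 replicate 2, −0.048 without Col replicate 1 and −0.016 without Col replicate 2, CML37 was at 0.12 without Col replicate 3, and CML43 was at 0.0028 without hda9-1 replicate 1 and 0.019 without Col replicate 3. None of these was called. The causes were not tested. The block changed no other CML call. The median log2 change of the 7 genes stayed between −0.02 and 0.21. Probe sets near the background, such as that of AT1G76640, give no firm level.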
